A study of Danio rerio with 9 samples.

Results

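The 17 genes described here are the Wnt ligands, receptors, cytoplasmic regulators and nuclear effectors named in the authors' comparison table, measured in zebrafish Müller glia after a light lesion. A gene was taken when its symbol in that table begins with wnt, fzd, dkk or sfrp and a digit, or is one of 19 further pathway names, and it was then found in the count table by its Ensembl gene ID. This gave 17 of the 33737 genes counted: 3 ligands, 7 Frizzled receptors, the co-receptor lrp5, 4 cytoplasmic proteins and 2 nuclear proteins. Of the 19 further names, 7 were found and 12 were not, among them axin1, axin2, lrp6, nkd1, notum1a, rspo3, sp5l, wif1 and the tcf7 group. No dkk or sfrp symbol was in the table either, so no secreted inhibitor is among the 17. axin1, axin2, lrp6 and sp5l are not analysed here. All 17 genes had enough counts to be tested. They come from a table that the authors had already reduced to 15530 genes by a filter not given in the sources used here.

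Wnt proteins are secreted ligands that bind Frizzled receptors together with an LRP co-receptor. Without ligand, a complex that holds axin, APC and the kinase GSK3 marks β-catenin for destruction. With ligand, β-catenin accumulates and acts in the nucleus with TCF and LEF proteins on targets such as axin2 and sp5. In the injured zebrafish retina the pathway is known for its part in the proliferation of progenitors that arise from Müller glia.

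All fish carried Tg(gfap:EGFP)mi2002, in which the gfap promoter drives green fluorescent protein in glia, and were 8 to 11 months old. Müller glia, the radial glia of the retina, were sorted by fluorescence from dissociated neural retina and their RNA was sequenced, with 3 libraries at each time. The groups were 0 hours post lesion (hpl), which were unlesioned fish, and 8 and 16 hpl, which were fish taken that long after 30 min of light of over 120000 lux. The 8 and 16 hpl fish have no unlesioned group of their own hour, so the lesion, the bright light and the hour at which fish were taken cannot be told apart. The labels do not say whether the libraries of a group came from separate fish or pools, so p-values measure the spread between these libraries, which may be technical.

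Libraries held 11714633 (16 hpl replicate 3) to 26608088 (8 hpl replicate 1) expected counts. On the leading principal component, with 29% of the variance, 8 hpl replicates 1 and 3 and 16 hpl replicate 2 lay between 54.5 and 99.2 and the other 6 libraries between −48.9 and −14.9. The clock gene per1b had 181 to 369 CPM (counts scaled to a common library size with TMM factors) in those 3 libraries and 664 to 1490 CPM in the others. Another clock gene, per2, did not split them so. It had 806, 831 and 244 CPM in 8 hpl replicates 1 and 3 and 16 hpl replicate 2, and 278 CPM in 8 hpl replicate 2. In 16 hpl replicates 1 and 3 per2 had 81.7 and 108 CPM, and at 0 hpl 11.6 to 42.6 CPM. The labelled cell type has its markers here. The sum of 11 matched Müller glia markers was 1022 to 1719 CPM at 0 hpl, 1622 to 1864 CPM at 8 hpl and 1846 to 2047 CPM at 16 hpl. Single markers of the list went different ways. gfap had 60.2 to 84.6 CPM at 0 hpl and 108 to 168 CPM at 16 hpl, and rlbp1a 327 to 433 CPM and 134 to 301 CPM. RNA of other cells was also present. The sum of 12 rod markers was 72239 to 119130, 95555 to 99430 and 44359 to 75296 CPM at 0, 8 and 16 hpl. The sum of 15 cone markers was 3602 to 4920, 1746 to 2837 and 1063 to 1778 CPM at these times. Lists for bipolar, amacrine and horizontal, ganglion, microglial, pigment epithelial and vessel cells summed to 3109 to 3317, 861 to 1124, 61.5 to 72.2, 20.1 to 34.2, 13.5 to 16.9 and 15.4 to 19.5 CPM at 0 hpl. In 16 hpl replicate 2 the bipolar list summed to 7562 CPM, against 2954 to 3631 CPM in the other 8 libraries, and the ganglion list summed to 34.7 to 64.8 CPM at 8 hpl and 29.7 to 44.0 CPM at 16 hpl. Lesioned libraries had 611 to 855 CPM of the amacrine and horizontal list, 14.5 to 27.4 CPM of the microglial list, 8.37 to 13.6 CPM of the pigment epithelial list and 12.3 to 21.6 CPM of the vessel list. No marker was at 0 in every library. The part of these cells in the results was not tested, and in bulk RNA fewer cells of a type and less RNA per cell cannot be told apart.

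Across the 3 times, 1 of the 17 genes, the ligand wnt8a, passed edgeR's quasi-likelihood test with Benjamini-Hochberg adjustment over all 19875 genes at an adjusted p under 0.05 (3.23% of all genes passed it). None passed in a comparison of 2 times, where 2.83% of all genes passed at 8 hpl against 0 hpl, 2.09% at 16 hpl against 0 hpl and 0.101% at 16 hpl against 8 hpl. At an unadjusted p under 0.05, 2 genes were higher and 4 lower at 8 hpl against 0 hpl (16.2% of all genes passed this), and 2 higher and 4 lower at 16 hpl against 0 hpl (14.8%). At 16 hpl against 8 hpl 3 were higher and 1 lower (13.6%), and 8 passed over the 3 times (18.5%). DESeq2 called 2, 3, 4 and 6 of the 17 in these 4 tests in the same order, where it called 7.47%, 6.34%, 3.85% and 11.2% of all genes. limma-voom called 0 in each, where it called 2.31%, 1.56%, 0.0855% and 2.04% of all genes. In each comparison of 2 times the library values of 6 of 17 genes (35.3%) did not overlap between the groups, against 26.8%, 21.1% and 16.8% of all genes. At 8 hpl against 0 hpl these were 3 higher (13.9% of all genes) and 3 lower (12.9%). At 16 hpl against 0 hpl they were 1 higher (10.7%) and 5 lower (10.4%), and at 16 hpl against 8 hpl 3 higher (8.49%) and 3 lower (8.34%). The median log2 fold change of the 17 genes was −0.25 at 8 hpl and 0.01 at 16 hpl against 0 hpl, beside 0.02 and 0.03 over all genes. At 16 hpl against 8 hpl it was 0.07, beside 0.01. Both comparisons with 0 hpl use the same 0 hpl libraries.

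**Figure D1:**
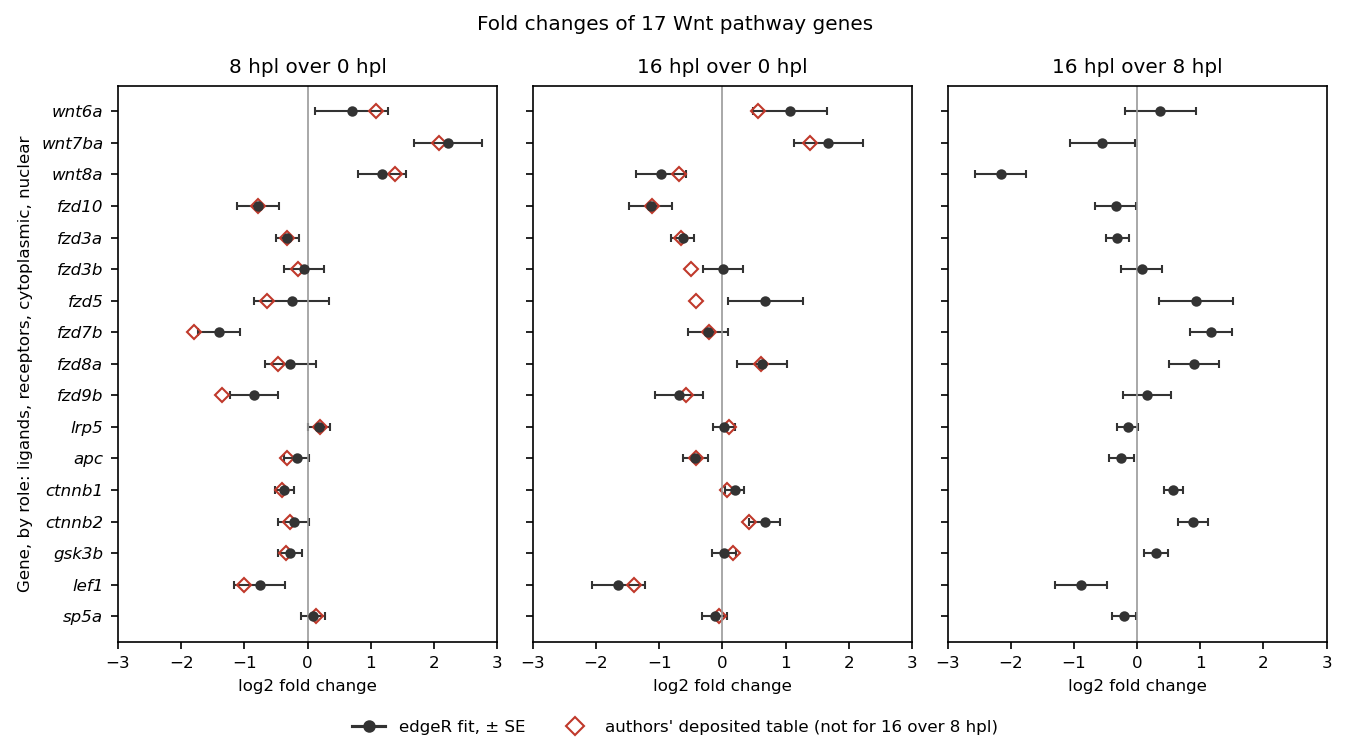
Log2 fold changes of the 17 genes in the edgeR fit (filled circles, bars ± SE) and in the authors' deposited table (open diamonds, given only against 0 hpl), in 3 panels by comparison and ordered by role down the page. The ligands lie to the right of 0 at 8 hpl, up to 2.22 for wnt7ba, fzd7b lies at −1.40 there and near 0 at 16 hpl, and lef1 lies at −1.65 at 16 hpl.

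All 3 ligands had log2 fold changes above 0 at 8 hpl against 0 hpl, with a median of 1.18, and at 16 hpl they ranged from −0.97 to 1.68. wnt8a (ENSDARG00000052910), a ligand known from zebrafish embryos for patterning the mesoderm and the posterior nervous system, had 1.37, 1.65 and 1.82 CPM in 0 hpl replicates 1 to 3, 3.94, 2.45 and 4.66 CPM at 8 hpl, and 1.04, 0.616 and 0.801 CPM at 16 hpl. Every 8 hpl library lay above every 0 hpl library, and every 16 hpl library lay below them all. It was the gene that changed over the 3 times (edgeR quasi-likelihood F test, adjusted p = 0.0349). Its log2 fold change was 1.18 ± 0.38 (SE, n = 3 per group; adjusted p = 0.145 in the edgeR fit) at 8 hpl and −0.97 ± 0.40 (adjusted p = 0.284) at 16 hpl against 0 hpl. For 16 hpl over 8 hpl it was −2.16 ± 0.40 (adjusted p = 0.0994). The call over the 3 times ended without any 1 of 7 libraries. The edgeR adjusted p was 0.101, 0.0986 and 0.0787 without 0 hpl replicates 1, 2 and 3, 0.146 and 0.154 without 8 hpl replicates 1 and 3, and 0.0644 and 0.0628 without 16 hpl replicates 1 and 3. It was 0.0147 without 8 hpl replicate 2, 0.0392 without 16 hpl replicate 2, and 0.0637 in limma-voom. Without the 3 libraries that lay apart it was 0.37, and the log2 fold changes were 0.60 at 8 hpl against 0 hpl and −1.39 at 16 hpl against 8 hpl, with 8 hpl replicate 2 as the 1 library left at 8 hpl.

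Part of the wnt8a reads is shared with the gene ENSDARG00000078507, which the gene name table calls WNT8A. wnt8a had 23.76, 37 and 34 expected counts at 0 hpl, 104, 61.41 and 104 at 8 hpl, and 24, 12.67 and 10 at 16 hpl. The other gene had 4.24, 26.59 and 23.33 expected counts in 0 hpl replicate 1, 8 hpl replicate 2 and 16 hpl replicate 2, and 0 in the other 6 libraries. The sum of both was whole in all 9 libraries. The summed gene had 1.60, 1.65 and 1.82 CPM at 0 hpl, 3.94, 3.54 and 4.66 CPM at 8 hpl, and 1.04, 1.71 and 0.801 CPM at 16 hpl. The summed 8 hpl libraries still lay above all others, while 16 hpl and 0 hpl now overlapped. Over the 3 times the summed gene had an adjusted p of 0.0456 in edgeR (0.137 without the 3 libraries that lay apart). Its log2 fold changes were 1.25 ± 0.36 (adjusted p = 0.101) at 8 hpl and −0.50 ± 0.37 (adjusted p = 0.604) at 16 hpl against 0 hpl. Over 8 hpl the 16 hpl value was −1.75 ± 0.37 (adjusted p = 0.109).

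**Figure D2:**
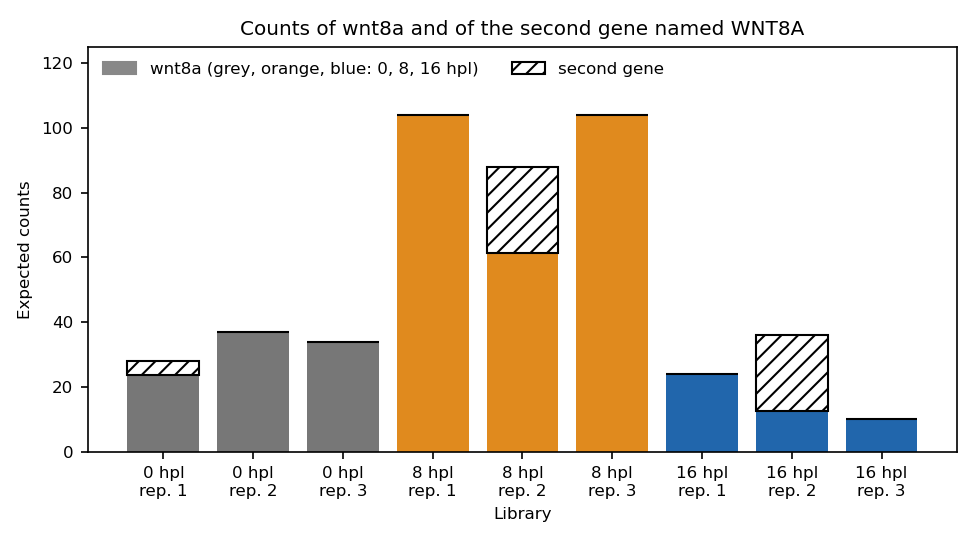
Expected counts of wnt8a (filled bars, coloured by time) and of the other gene named WNT8A (hatched, stacked on top) in each of the 9 libraries. The hatched part appears in 0 hpl replicate 1, 8 hpl replicate 2 and 16 hpl replicate 2 and is largest at 8 hpl replicate 2, with 26.59 counts.

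wnt7ba (ENSDARG00000022858), a zebrafish counterpart of mammalian Wnt7b, had 1.26, 0.983 and 0.588 CPM at 0 hpl, 3.64, 4.22 and 5.42 CPM at 8 hpl, and 2.29, 1.33 and 5.60 CPM at 16 hpl. Both lesioned groups lay above 0 hpl without overlap, and the 16 hpl libraries reached from just above 0 hpl to above the highest 8 hpl library. Its log2 fold change against 0 hpl was 2.22 ± 0.54 at 8 hpl (adjusted p = 0.0595 in edgeR), a 4.67-fold level, and 1.68 ± 0.54 at 16 hpl (adjusted p = 0.163). Settings in which it passed at 8 hpl were a fit of only the 2 groups (adjusted p = 0.0203), no filter on low counts (0.0458), and fits without 16 hpl replicate 2 (adjusted p = 0.0164), without 16 hpl replicate 3 (0.0314), without the 3 libraries that lay apart (2.15, adjusted p = 0.0496), and DESeq2 (adjusted p = 0.00272). At 16 hpl the log2 fold change was 0.94 without 16 hpl replicate 3, and without the 3 libraries that lay apart it was 2.04 (adjusted p = 0.0238). wnt6a (ENSDARG00000038283), a ligand of the Wnt6 group, had 0.859, 0.849 and 1.28 CPM at 0 hpl, 2.08, 0.804 and 1.97 CPM at 8 hpl, and 1.34, 3.79 and 1.12 CPM at 16 hpl. Its 3 highest values are those of the 3 libraries that lay apart, and all groups overlapped. Its log2 fold changes of 0.70 ± 0.58 at 8 hpl and 1.07 ± 0.58 at 16 hpl did not pass (edgeR adjusted p = 0.631 and 0.44), and the first was −0.31 without those 3 libraries.

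Of the 7 Frizzled genes and lrp5, 7 of 8 had log2 fold changes below 0 at 8 hpl against 0 hpl, with a median of −0.29, and 4 of 8 did at 16 hpl. fzd7b, fzd9b and fzd10 are described by library because of their values, chosen after these were seen. fzd7b (ENSDARG00000027589), a Frizzled receptor known from the gastrulating zebrafish embryo, had 10.1, 13.5 and 7.38 CPM at 0 hpl, 2.58, 5.27 and 3.85 CPM at 8 hpl, and 9.39, 6.96 and 10.0 CPM at 16 hpl. The 8 hpl libraries lay below all others, and 16 hpl overlapped with 0 hpl. The log2 fold change was −1.40 ± 0.33 at 8 hpl against 0 hpl (edgeR adjusted p = 0.0542), a 0.378-fold level, and −0.23 ± 0.32 at 16 hpl against 0 hpl (adjusted p = 0.817). For 16 hpl over 8 hpl it was 1.17 ± 0.33 (adjusted p = 0.177). At 8 hpl it passed with no filter on low counts (adjusted p = 0.0459), without 8 hpl replicate 2 (−1.69, adjusted p = 0.0223), without 16 hpl replicate 2 (adjusted p = 0.0268) and in DESeq2 (adjusted p = 0.00315). It was −0.98 (adjusted p = 0.169) without the 3 libraries that lay apart.

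fzd9b (ENSDARG00000014673), another Frizzled receptor, had 6.30, 7.15 and 6.47 CPM at 0 hpl, 2.54, 6.07 and 2.46 CPM at 8 hpl, and 4.54, 3.13 and 4.72 CPM at 16 hpl. Both lesioned groups lay below 0 hpl without overlap, and 2.54, 2.46 and 3.13 CPM, the lowest values, belong to the 3 libraries that lay apart. Its log2 fold changes were −0.85 ± 0.38 at 8 hpl (edgeR adjusted p = 0.302) and −0.69 ± 0.38 at 16 hpl (adjusted p = 0.449), and without the 3 libraries that lay apart the first was −0.13 (adjusted p = 0.882). Without 8 hpl replicate 2 it was −1.41 (adjusted p = 0.0276). fzd10 (ENSDARG00000068213) had 10.5, 8.31 and 4.55 CPM at 0 hpl, 4.89, 4.18 and 4.48 CPM at 8 hpl, and 3.72, 2.75 and 4.24 CPM at 16 hpl. Its 16 hpl libraries lay below 0 hpl without overlap, by a log2 fold change of −1.13 ± 0.34 (edgeR adjusted p = 0.129). DESeq2 called this difference (adjusted p = 0.0388).

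fzd3a (ENSDARG00000021664), a Frizzled known from axon guidance and neuronal migration, had 64.1, 70.5 and 49.3 CPM at 0 hpl, 52.6, 45.8 and 48.8 CPM at 8 hpl, and 40.0, 34.8 and 44.0 CPM at 16 hpl. The 16 hpl libraries lay below both other groups, with log2 fold changes of −0.63 ± 0.18 against 0 hpl (edgeR adjusted p = 0.114) and −0.31 ± 0.18 against 8 hpl (adjusted p = 0.495). DESeq2 called the first of these (adjusted p = 0.0388). The co-receptor lrp5 (ENSDARG00000006921) had 65.4, 66.5 and 73.3 CPM at 0 hpl, 74.1, 78.0 and 80.9 CPM at 8 hpl, and 70.0, 57.9 and 81.5 CPM at 16 hpl. It lay above 0 hpl in each 8 hpl library and overlapped with it at 16 hpl. At 8 hpl the log2 fold change over 0 hpl was 0.18 ± 0.17 (edgeR adjusted p = 0.668). The other Frizzled genes, fzd3b, fzd5 and fzd8a, overlapped between all groups, with log2 fold changes against 0 hpl of −0.27 to −0.06 at 8 hpl and 0.01 to 0.68 at 16 hpl. fzd5, known as a Frizzled of the eye field, had 8.43 CPM in 16 hpl replicate 2 and 1.34 to 3.71 CPM elsewhere. That library, in which the bipolar markers were also highest, had the highest values of wnt6a, ctnnb1 and ctnnb2 as well. The part of bipolar RNA in these genes was not tested.

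**Figure D3:**
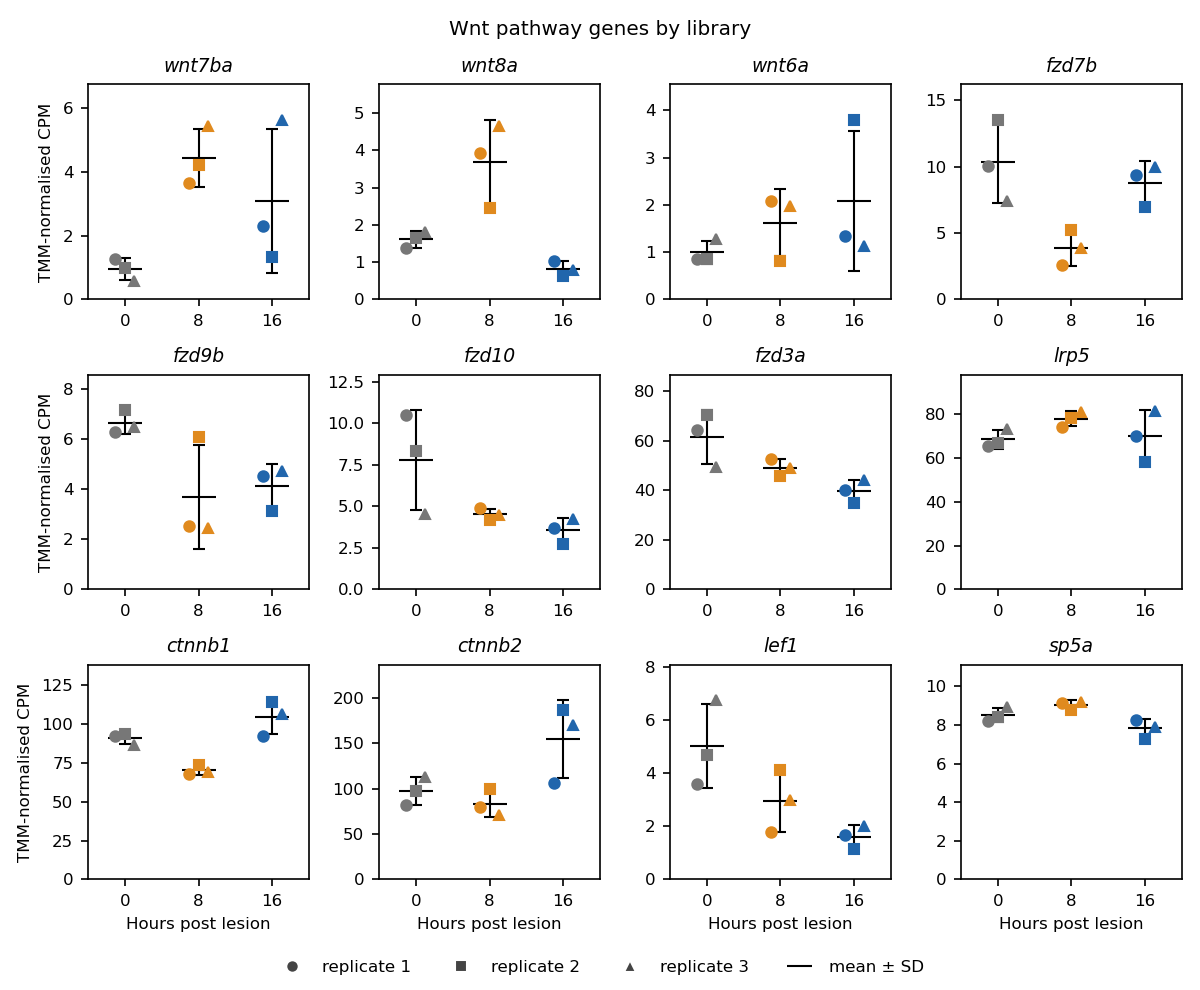
TMM-normalised CPM of 12 of the genes in each library against hours post lesion, with the mean and SD of each time (n = 3) as bars and the replicate number as the symbol. wnt8a and wnt7ba lie above their 0 hpl values in every 8 hpl library, fzd7b lies below them, and lef1 is lowest at 16 hpl.

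Of the cytoplasmic proteins, all 4 genes had log2 fold changes below 0 at 8 hpl (−0.37 to −0.17), and both β-catenin genes stood higher at 16 hpl than at 8 hpl. ctnnb1 (ENSDARG00000014571), which encodes β-catenin, had 92.1, 93.7 and 86.5 CPM at 0 hpl, 67.7, 73.4 and 69.4 CPM at 8 hpl, and 92.7, 114 and 106 CPM at 16 hpl. Its 8 hpl libraries lay below all others, with log2 fold changes of −0.37 ± 0.15 against 0 hpl (edgeR adjusted p = 0.256) and 0.57 ± 0.15 for 16 hpl against 8 hpl (adjusted p = 0.152). ctnnb2 (ENSDARG00000023472), the other β-catenin gene of zebrafish, had 81.9, 97.3 and 113 CPM at 0 hpl, 79.9, 99.8 and 71.0 CPM at 8 hpl, and 106, 187 and 171 CPM at 16 hpl. The 16 hpl libraries lay above 8 hpl and overlapped with 0 hpl. The difference on the log2 scale was 0.89 ± 0.24 against 8 hpl (edgeR adjusted p = 0.162) and 0.67 ± 0.24 against 0 hpl (adjusted p = 0.22). DESeq2 called both at 16 hpl against 8 hpl. Reads of ctnnb1 and ctnnb2 are partly shared, with fractional expected counts in 2 libraries that sum to whole numbers over both genes. Expected counts of lrp5, gsk3b, fzd3a, lef1, wnt6a and sp5a were also fractional in some or all libraries. With which genes their reads are shared, and how far this moves their values, was not tested.

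gsk3b (ENSDARG00000017803), the kinase of the destruction complex, had log2 fold changes of −0.27 ± 0.19 at 8 hpl and 0.02 ± 0.19 at 16 hpl against 0 hpl (edgeR adjusted p = 0.566 and 0.974), with 25.2 to 38.8 CPM over all libraries. For apc (ENSDARG00000058868), the scaffold of that complex, they were −0.17 ± 0.20 and −0.43 ± 0.20 (adjusted p = 0.758 and 0.374), with 78.2 to 147 CPM.

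Of the nuclear proteins, lef1 stood lower at 16 hpl than at 0 hpl, and sp5a lay between 7.29 and 9.22 CPM in all libraries. lef1 (ENSDARG00000031894), a DNA-binding partner of β-catenin that is itself a target of the pathway, had 3.61, 4.69 and 6.74 CPM at 0 hpl, 1.78, 4.1 and 3.00 CPM at 8 hpl, and 1.69, 1.14 and 2.00 CPM at 16 hpl. The 16 hpl libraries lay below 0 hpl without overlap, and the 8 hpl libraries overlapped with both. Its log2 fold change was −1.65 ± 0.42 at 16 hpl (edgeR adjusted p = 0.0777), a 0.319-fold level, and −0.76 ± 0.40 at 8 hpl (adjusted p = 0.399). At 16 hpl it passed without the 3 libraries that lay apart (−1.44, adjusted p = 0.0382) and in DESeq2 (adjusted p = 0.00741). sp5a (ENSDARG00000076571), a zinc-finger gene known as a Wnt target in the zebrafish embryo, had 8.19, 8.44 and 8.93 CPM at 0 hpl, 9.13, 8.76 and 9.22 CPM at 8 hpl, and 8.26, 7.29 and 7.93 CPM at 16 hpl. Each 16 hpl library lay below 8 hpl, by a fitted −0.21 ± 0.19 on the log2 scale (edgeR adjusted p = 0.701). Both times overlapped with 0 hpl. Expected counts of lef1 were fractional in every library and those of sp5a in every library but 16 hpl replicate 2. The part of shared reads in the values of lef1 and sp5a was not tested.

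In the authors' deposited table, 9 of the 17 genes (52.9%) had an adjusted p under 0.05 at 8 hpl, 3 higher and 6 lower, where 37.7% of its genes did. At 16 hpl it was 3 of 17 (17.6%), all lower, beside 13.2%. Its log2 fold changes at 8 hpl were 2.08 for wnt7ba (adjusted p = 0.00124), 1.39 for wnt8a (0.00117) and 1.08 for wnt6a (0.0218), and the 6 lower genes were fzd7b, fzd9b, lef1, fzd10, ctnnb1 and gsk3b. For fzd7b the authors' table gives −1.80 (adjusted p = 0.000189) and for fzd9b −1.35 (0.000347), and for fzd9b the edgeR value was −0.85. The 3 lower genes of the authors' table at 16 hpl were lef1 at −1.39 (adjusted p = 0.0318), fzd10 at −1.12 (0.0347) and fzd3a at −0.65 (0.0135). At 16 hpl that table had fzd5 at −0.41 and fzd3b at −0.49, where the edgeR values were 0.68 and 0.01. The signs of the other genes were the same in both.

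Levels between genes were compared in the authors' FPKM, which divide by transcript length. Over the 9 libraries the 17 genes ranged from 0.507 to 107 FPKM. At 0 hpl the highest were ctnnb2 with 55.7 ± 9.31 FPKM (SD, n = 3), ctnnb1 with 44.5 ± 0.908, apc with 17.1 ± 2.43 and fzd3a with 11.4 ± 1.90 FPKM. ctnnb2, ctnnb1 and apc each lay above the next gene without overlap, and fzd3a overlapped with lrp5. The ligands had the lowest means, with 1.56 ± 0.514 FPKM for wnt8a, 1.49 ± 0.402 for wnt6a and 1.23 ± 0.432 for wnt7ba. These 3 overlapped with each other and with fzd5 and fzd8a. At 8 hpl wnt7ba, at 5.73 ± 1.26 FPKM, ranked 7 of the 17 by its mean and overlapped with sp5a. At 16 hpl it had 3.95 ± 2.85 FPKM, and lef1 (0.851 ± 0.332 FPKM) and wnt8a (0.849 ± 0.181 FPKM) were the lowest. The 3 ligands together had 3.96, 4.1 and 4.80 FPKM at 0 hpl, 10.2, 10.1 and 13.1 at 8 hpl, and 5.87, 8.40 and 9.46 at 16 hpl, with no overlap between any groups. In CPM the same sum overlapped between 16 and 8 hpl, with 7.53 CPM in 16 hpl replicate 3 and 7.48 CPM in 8 hpl replicate 2. The 7 Frizzled genes together had 32.9, 36.3 and 24.5 FPKM at 0 hpl, 20.9, 23.9 and 19.9 at 8 hpl, and 23.3, 24.3 and 26.6 at 16 hpl, so that 8 hpl lay below 0 hpl and 16 hpl overlapped with both. ctnnb2 made up 51.0%, 55.0% and 60.1% of the summed FPKM of the β-catenin genes at 0 hpl, 57.9%, 62.6% and 55.3% at 8 hpl, and 58.2%, 67.7% and 66.5% at 16 hpl. For wnt8a the ratio of FPKM to CPM differed by 2.45 times between libraries, and for lef1 and fzd3b by 1.86 and 1.75 times, against at most 1.14 times for the other 14 genes.

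**Figure D4:**
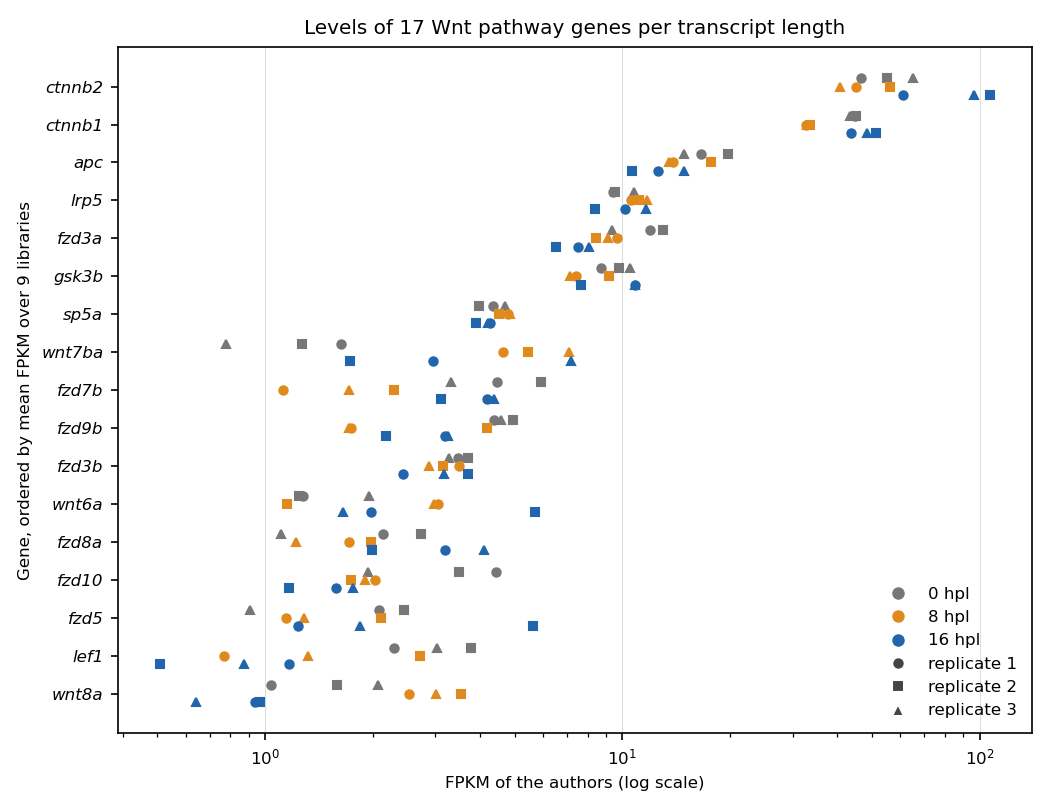
FPKM of the authors (log scale) of the 17 genes in each of the 9 libraries, with colour for the time and symbol for the replicate, ordered from the highest mean at the top. ctnnb2 and ctnnb1 stand above the rest in all libraries, and wnt8a and lef1 have the lowest means.

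**Figure D5:**
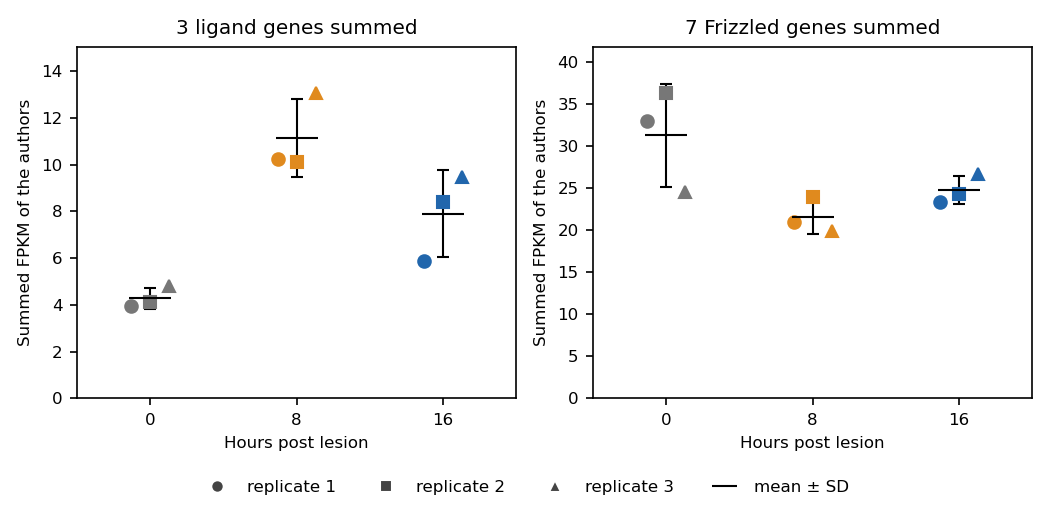
Summed FPKM of the authors for the 3 ligand genes (left) and the 7 Frizzled genes (right) in each library against hours post lesion, with mean and SD (n = 3) as bars. The ligand sum lies at 10.1 to 13.1 at 8 hpl, above the 3.96 to 4.80 of 0 hpl, and the Frizzled sum at 19.9 to 23.9, below the 24.5 to 36.3 of 0 hpl.

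Further Wnt family genes, 42 in number, are in the count table under a name of the gene name table and have no row in the authors' table. The 2949 genes of the authors' table without a symbol were not searched for Wnt family names. Of the 42 genes, 17 were tested and 25 had too few counts, at most 54.16 over the 9 libraries. The tested ones include 5 secreted inhibitors (DKK3, dkk1b, dkk2, an SFRP1 and WIF1), each with a group mean of at most 1.11 CPM. The smallest unadjusted p of these 5 in the edgeR fit was 0.0859, for SFRP1 at 8 hpl against 0 hpl (log2 fold change 1.23, adjusted p = 0.401). Of the 17 tested, edgeR called 1 at 16 hpl against 0 hpl (2.09% of all genes) and 1 over the 3 times (3.23%). It called 0 at 8 hpl against 0 hpl (2.83%) and at 16 hpl against 8 hpl (0.101%). The called gene was RSPO3 (ENSDARG00000070081), a secreted agonist that strengthens Wnt signalling. RSPO3 had 0, 1 and 0 expected counts at 0 hpl, 17, 2 and 8.33 at 8 hpl, and 21.56, 42.41 and 22 at 16 hpl. It passed the count filter only through the lesioned libraries, so its difference from 0 hpl is given as a description. Its p-values are no support for that difference. With the libraries of each group pooled, the ratio of 16 hpl to 0 hpl counts per library size was 88.5 (86 counts against 1). Its 95% exact interval, 15.5 to 3540, holds counting error only and no spread between libraries. The edgeR adjusted p was 0.0253. At 8 hpl the ratio was 21.4 (3.53 to 878, adjusted p = 0.108). The adjusted p at 16 hpl was 0.129, 0.103 and 0.124 without 0 hpl replicates 1, 2 and 3, 0.053 without 16 hpl replicate 3, 0.0651 in limma-voom and 0.0188 without the 3 libraries that lay apart. At an unadjusted p under 0.05, 2 of the 17 tested genes passed at 8 hpl against 0 hpl, where 16.2% of all genes did. These were RSPO3, which was higher, and wnt11f2, which was lower. wnt11f2 (ENSDARG00000004256), a ligand of the Wnt11 group, had 2.23, 2.14 and 1.60 CPM at 0 hpl, 0.644, 0.885 and 0.582 CPM at 8 hpl, and 1.51, 1.18 and 1.12 CPM at 16 hpl. Both lesioned groups lay below 0 hpl without overlap, and the direction at 8 hpl was opposite to that of the 3 ligands above. Its log2 fold change against 0 hpl was −1.49 ± 0.42 at 8 hpl (edgeR adjusted p = 0.0946) and −0.64 ± 0.41 at 16 hpl (adjusted p = 0.531). At 16 hpl against 0 hpl 3 of the 17 tested genes had an unadjusted p under 0.05, where 14.8% of all genes did. RSPO3 and WNT8B were higher and NKD1 was lower. The unadjusted edgeR p was 0.0461 for WNT8B and 0.0284 for NKD1. WNT8B (ENSDARG00000006911) is another ligand. It had 1.32, 0.938 and 0.802 CPM at 0 hpl, 1.14, 1.49 and 0.672 CPM at 8 hpl, and 1.82, 1.99 and 2.40 CPM at 16 hpl. The log2 fold change at 16 hpl against 0 hpl was 1.02 ± 0.45 (edgeR adjusted p = 0.326). NKD1 (ENSDARG00000020053), a cytoplasmic feedback inhibitor described because it is among the 19 names, had 2.18, 1.30 and 0.749 CPM at 0 hpl, 0.606, 0.724 and 0.134 CPM at 8 hpl, and 0.173, 0.568 and 0.320 CPM at 16 hpl. Both lesioned groups lay below 0 hpl, at 8 hpl only by 0.724 against 0.749 CPM. Its log2 fold changes of −1.51 and −1.97 did not pass (edgeR adjusted p = 0.36 and 0.26). TCF7L2, TCF7L1 and tcf7l1b, tested genes of the tcf7 group, overlapped with 0 hpl at both times. Their log2 fold changes against 0 hpl were 0.32, −0.27 and −0.58 at 8 hpl (edgeR adjusted p = 0.833, 0.87 and 0.716). At 16 hpl these were 0.28, 0.37 and 0.74 (adjusted p = 0.873, 0.826 and 0.635).

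For 102 other names of the pathway (secretion, Dishevelled, casein kinases, co-repressors, planar polarity), 74 genes were found and 69 tested. The name celsr2 gave 2 of these genes. edgeR called 2 of the 69 at 8 hpl (2.83% of all genes) and 1 at 16 hpl (2.09%) against 0 hpl, all higher. It called 0 at 16 hpl against 8 hpl (0.101%), where DESeq2 called 1 (3.85%) and limma-voom 0 (0.0855%). At an unadjusted p under 0.05, 5 of the 69 were higher and 7 lower at 8 hpl against 0 hpl (16.2% of all genes in both directions). At 16 hpl against 0 hpl 15 were higher and 3 lower (14.8%), and at 16 hpl against 8 hpl 9 higher and 0 lower (13.6%). Of all 19875 genes tested, 1848 were higher and 1371 lower, 1732 higher and 1207 lower, and 1319 higher and 1391 lower, in the same order. Their median log2 fold change was −0.06 at 8 hpl and 0.13 at 16 hpl against 0 hpl, and 0.30 at 16 hpl against 8 hpl. csnk1e (ENSDARG00000045150), a casein kinase that acts on Dishevelled and on clock proteins, had 56.3, 54.1 and 55.7 CPM at 0 hpl, 98.7, 87.0 and 95.8 CPM at 8 hpl, and 89.0, 68.9 and 82.1 CPM at 16 hpl. It rose at 8 hpl by 0.76 ± 0.16 (log2; adjusted p = 0.0339). tle3a (ENSDARG00000002787), a co-repressor of the Groucho group that binds TCF proteins, had 25.9, 32.9 and 36.1 CPM at 0 hpl, 68.9, 64.4 and 70.3 CPM at 8 hpl, and 54.3, 34.1 and 60.0 CPM at 16 hpl. It rose at 8 hpl by 1.1 ± 0.23 (log2; adjusted p = 0.033). Both genes had every 8 hpl library above every 0 hpl library. ptk7a (ENSDARG00000011863), a receptor-like protein of planar polarity, had 5.90, 7.37 and 4.92 CPM at 0 hpl, 8.71, 10.3 and 8.06 CPM at 8 hpl, and 13.2, 26.3 and 12.9 CPM at 16 hpl. It rose at 16 hpl by 1.53 ± 0.32 (log2; adjusted p = 0.038). Without 16 hpl replicate 2, where it and the bipolar markers were highest, the value was 1.1 (edgeR adjusted p = 0.044). The part of bipolar RNA in it was not tested. Leaving out 1 library ended these calls for csnk1e without 0 hpl replicates 1 to 3 (adjusted p = 0.157, 0.143 and 0.12), 8 hpl replicates 1 and 3 (0.158 and 0.145) and 16 hpl replicate 1 (0.0538). For tle3a it was without 0 hpl replicates 1 to 3 (0.165, 0.126 and 0.0894), 8 hpl replicates 1 and 3 (0.132 and 0.13) and 16 hpl replicate 1 (0.0576). For ptk7a it was without 0 hpl replicates 1 to 3 (0.172, 0.105 and 0.168), 8 hpl replicates 1 and 3 (0.0729 and 0.067) and 16 hpl replicate 1 (0.0534). Without the 3 libraries that lay apart csnk1e had an adjusted p of 0.0579, tle3a of 0.0126 and ptk7a of 0.0163. csnk1e also missed the threshold with no filter on low counts (0.0586), and ptk7a in limma-voom (0.0605) and in a fit of only the 2 groups (0.066). With the replicate number as a block in the edgeR fit, csnk1e (adjusted p = 0.104) and tle3a (0.0871) missed it and ptk7a passed (0.0487).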

How the data were processed

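RNA of sorted Müller glia was measured in 9 libraries, 3 at each of 0, 8 and 16 hpl. The submitters' processing notes name build Zv9 and, with no roles, RSEM 1.2.22, Bowtie2 2.2.6, Trim Galore 0.2.7, limma 3.24.15, edgeR 3.10.2, FastQC 0.10.1 and cutadapt 1.4.2. The authors deposited expected counts per Ensembl gene from RSEM, not normalized, a table of FPKM, and a table of log2 fold changes and adjusted p-values whose model was not given in the sources used here. Its t and B columns, scores deposited by the authors, were not used.

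Expected counts were rounded and fitted with edgeR 4.0.16 in R 4.3.3 (filterByExpr by group, TMM factors 0.873 to 1.07, robust quasi-likelihood F test, 1 fit of 9 libraries, 6 residual degrees of freedom). Two-sided p-values were adjusted by Benjamini-Hochberg over 19875 genes, with a threshold of 0.05. SE was computed as the size of the log2 fold change divided by the root of F. Alternatives were DESeq2 1.42.0, limma-voom (limma 3.58.1), DESeq2 size factors, no filter, 2 groups only, a replicate block and leaving out each library. Leaving out the 3 libraries that lay apart and summing the WNT8A genes were added after seeing the data. The procedure was tested on simulated data, drawn independently for each library and with no libraries that lay apart. That test therefore cannot show how such libraries move the calls. Members and lists were chosen with earlier results of these data known. Values by library were given for called members and the highest FPKM of each role, beside fzd7b, fzd9b and fzd10. Sequences were not used here.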

Additional observations from a re-analysis of the deposited data

How the results depend on the processing

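The share of all genes that a setting called stands in brackets. Against 0 of 17 genes at 8 hpl against 0 hpl (2.83%), DESeq2 called 2 (7.47%), no filter on low counts 2 (2.02%), only the 2 groups 1 (5.27%) and the fits without the 3 libraries that lay apart, with or without the WNT8A genes summed, 1 (4.90%). Leaving out 1 library gave 0 to 2 (0.465% to 6.46%). Against 0 at 16 hpl against 0 hpl (2.09%), DESeq2 called 3 (6.34%) and the fits without the 3 libraries 2 (7.52%), and leaving out 1 library gave 0 (0.504% to 3.2%). Against 0 at 16 hpl against 8 hpl (0.101%), DESeq2 called 4 (3.85%), and leaving out 1 library gave 0 to 1 (0% to 3.32%). Against 1 over the 3 times (3.23%), DESeq2 called 6 (11.2%), limma-voom 0 (2.04%) and the replicate block 0 (0.921%), and leaving out 1 library gave 0 to 3 (0.563% to 7.6%). Without the 3 libraries the 1 gene called over the 3 times was wnt7ba, not wnt8a (8.18%). With these same shares, 2 of the other pathway genes at 8 hpl became 5 in DESeq2, 1 with no filter, 0 with the replicate block (0.74%) and 5 without the 3 libraries, with 0 to 6 on leaving out 1. At 16 hpl against 0 hpl, 1 became 5 in DESeq2, 0 in limma-voom (1.56%), 2 with no filter (1.68%), 0 with only 2 groups (1.7%) and 11 without the 3 libraries, with 0 to 4 on leaving out 1. At 16 hpl against 8 hpl, 0 became 1 in DESeq2, with 0 to 4 on leaving out 1. With the replicate block the adjusted p of RSPO3 at 16 hpl was 0.0915 and that of wnt8a over the 3 times 0.104. The cause of these differences was not tested.

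Of 582 fold changes of 12 genes under these settings, 552 kept their sign and side of the threshold, 21 newly passed and 9 changed sign, none of them called. Without the 3 libraries, ctnnb2 at 8 hpl had 0.03, wnt6a at 8 hpl −0.31 and fzd9b at 16 hpl against 8 hpl −0.38. lrp5 at 16 hpl against 0 hpl ranged from −0.09 to 0.14 on leaving out 1 library (−0.01 without 0 hpl replicate 1), and wnt6a at 16 hpl against 8 hpl from −0.39 (without 16 hpl replicate 2) to 0.65. fzd7b at 16 hpl against 0 hpl ranged from −0.43 to 0.02 (without 0 hpl replicate 2), and fzd9b at 16 hpl against 8 hpl from −0.06 (without 8 hpl replicate 1 or 3) to 0.72.

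Deviations of same-numbered libraries from their group means correlated at −0.397 to 0.101, and those of differently numbered libraries at −0.2 to 0.305. With 3 libraries per group these deviations depend on each other, so the values cannot show whether replicate numbers pair the libraries. Without the 3 libraries, 8 hpl keeps 1 library, which is assumed to vary like the other groups. The ligands, lef1 and several Frizzled genes lay under 15 CPM, where few counts limit the precision, and a p that misses the threshold does not show that levels were equal.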
